A study of Mus musculus with 21 samples.

Results

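The E15 experiment compared forebrain cells of embryos exposed to valproic acid (VPA) with those of embryos given vehicle, and comprised 6 of the 21 libraries of the series. All embryos were C57BL/6 mice carrying a Nestin-EGFP transgene, in which green fluorescent protein is driven by Nestin regulatory sequence. In the VPA group, pregnant mothers had received VPA by mouth at 300 mg per kg per day on embryonic days 12, 13 and 14 (3 libraries). Mothers of the control group had received the methylcellulose vehicle on the same days (3 libraries). The forebrain was dissected at E15, the day after the last dose, and GFP-positive cells were collected by fluorescence-activated sorting. Polyadenylated RNA was then sequenced. The libraries were chosen by their group labels and not by any measured value. The labels do not say whether the replicates of a group were separate embryos, litters or pools, so the p-values measure the spread between these libraries, which may be technical.

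VPA is an antiepileptic drug and mood stabiliser that inhibits class I histone deacetylases, enzymes that remove acetyl groups from histones. It crosses the placenta, and exposure before birth is a known cause of neural tube defects and of later cognitive and behavioural impairment. In the mid-gestation forebrain, radial glia line the ventricles and divide to give intermediate progenitors and neurons. Those of the dorsal wall make the glutamatergic neurons of the cortex, and those of the ventral wall make GABAergic neurons. Nestin is an intermediate filament of radial glia, which is why the transgene is used to sort them.

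Values were the authors' FPKM, fragments scaled to transcript length and to the size of the library, for 24322 gene symbols. The test covered the 12345 genes that reached 1 FPKM in at least 3 of the 6 libraries. Fold changes are VPA minus control on the log2(FPKM + 1) scale, where a change in a low gene comes out too small. Adjusted p-values are from limma with the Benjamini-Hochberg method over all 12345 genes, with a threshold of 0.05.

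Past the threshold were 5 genes, 0.0405% of those tested, and each was a small RNA gene with a lower value in VPA. The microRNA genes Mir7078 and Mir3057, the small nucleolar RNA genes Snord65 and Snord57 and the Cajal body RNA gene Scarna6 were listed at 0 in every VPA library. They reached the filter through the 3 controls alone, so a gene admitted in this way had to be lower in VPA, and the calls are given as a description. With no filter, Mir7078, Mir3057 and Snord65 still passed. The mature sequences of the microRNA genes that were listed at 0 in every VPA library are given below 5′ to 3′, as RefSeq annotates them on GRCm38.p6, with the seed (bases 2 to 8) in capitals. Mir568, with the same pattern, just missed the threshold. No seed was shared between them.
mmu-miR-7078-5p: uGUGGGUGguaggagacgcu
mmu-miR-7078-3p: uACUUUUUuuaucauccacag
mmu-miR-3057-5p: aUUGGAGCugagauucugcgggau
mmu-miR-3057-3p: uCCCACAGgcccagcucauagc
mmu-miR-568: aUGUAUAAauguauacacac

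Mir7078 (chromosome 8, 117459265 to 117459328, in an intron of Cmip in GENCODE vM21 on mm10) had 0, 0 and 0 FPKM in the VPA libraries, against 207.3, 325.1 and 367.9 FPKM in the controls (adjusted p = 2e-05). Mir3057 (chromosome 10, 81271597 to 81271687, overlapping an exon of Apba3) was likewise at 0 in VPA, against 27.4, 21.5 and 38.9 FPKM in controls (adjusted p = 0.000364). Mir568 (chromosome 16, 43640655 to 43640737, overlapping an exon of Zbtb20) was at 0 in VPA, against 115.1, 210.7 and 27.2 FPKM in controls (adjusted p = 0.0542). Snord65 (chromosome 11, 62604515 to 62604586, in an intron of 2410006H16Rik) was at 0 in VPA, against 167.1, 393.2 and 118.7 FPKM in controls. Every control library held these genes, and their control values varied up to severalfold. Snord57 (chromosome 2, 130278016 to 130278087, overlapping an exon of Nop56) was at 0 in VPA, against 441.7, 86.6 and 235.2 FPKM in controls. Scarna6 (chromosome 1, 87784556 to 87784820, in an intron of Atg16l1) was at 0 in VPA, against 6.01, 6.73 and 3.05 FPKM in controls (adjusted p = 0.041), and with the replicate number as a block its adjusted p was 0.123. No fold change is given against values listed at 0. Host genes with a value per library here did not share the pattern. Cmip had 86.3, 81.2 and 76.9 FPKM in VPA, against 73.7, 85.4 and 77.1 FPKM in controls, and Apba3 had 11.8, 12.5 and 9.97 FPKM in VPA, against 12.3, 11.9 and 11.2 FPKM in controls. Nop56, a nucleolar protein gene that holds Snord57, had 74.0, 77.1 and 72.8 FPKM in VPA, against 74.7, 70.2 and 80.6 FPKM in controls. In each of these host genes the groups overlapped.

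Small RNA genes were listed at 0 in single libraries of both groups. Mir7078 and Mir3057 were also at 0 in 2 of the 3 P5 control libraries and in all 9 libraries of 12-week-old mice. Of 216 small RNA genes that reached 10 FPKM in at least 1 VPA library, 144 were at 0 in another VPA library. The same held for 152 of 252 in the controls. Fewer small RNA genes were above 0 in each VPA library (163, 159 and 122) than in any control (186, 187 and 176). Among small RNA genes with at least 1 FPKM in all 3 libraries of 1 group, 7 were at 0 throughout VPA and 0 were at 0 throughout controls. The 7 include Mir6357, which was at 0 in VPA, against 2.16, 24.5 and 19.6 FPKM in controls. Of the 158 small RNA genes tested, 15 were lower without overlap (9.49%) and 5 higher (3.16%). Mature microRNAs carry no poly(A) tail, so these values do not measure them. Whether the values of Snord65, Snord57 and Scarna6 measure the mature RNA was not tested. FPKM is scaled to length, so a high value of a short gene can come from few fragments, and no read counts were used. Mir568, Mir6357, the host genes and, below, Nr4a1, Dusp1, Fos, Egr1, Ctgf, Jund, Nr4a3, Mt1, Mt2, Isl1, Six3, Nkx2-1, Dlx6, Sp8, Bcl11b, Disp1 and Hes5 were chosen after their values were seen. So were Folr1, Kcnj13, Apoe, Enpp2, Nnat and Gm13363.

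**Figure D1:**
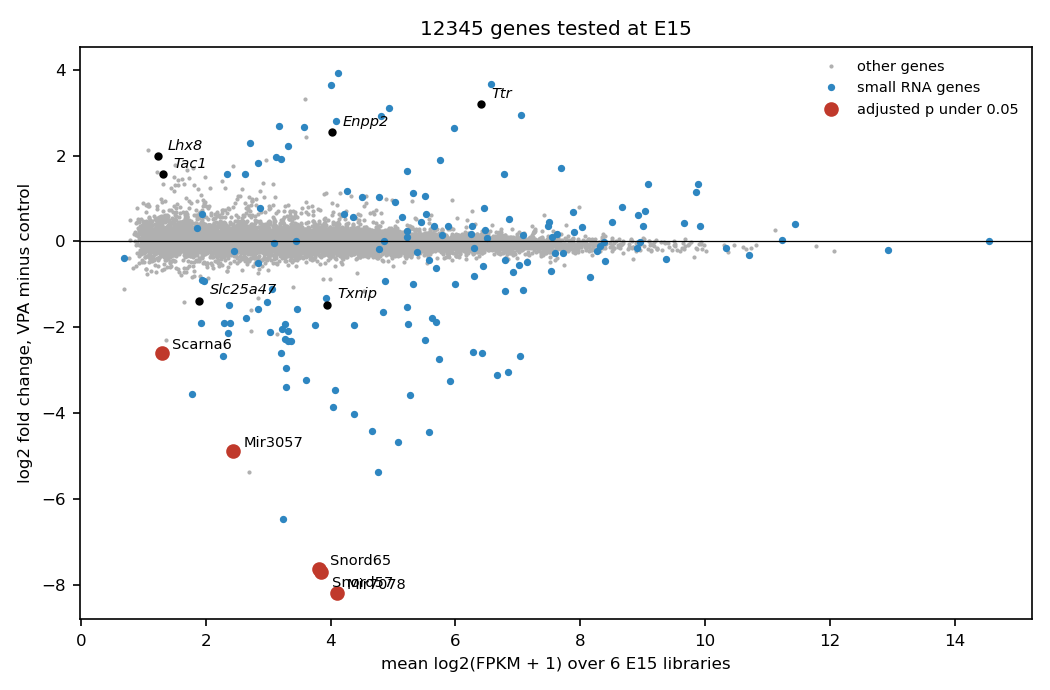
Log2 fold change, VPA minus control, on the y axis against mean log2(FPKM + 1) over the 6 E15 libraries on the x axis, 1 point per gene for the 12345 genes tested. Grey points are genes other than small RNA genes, blue points are small RNA genes and red points passed the threshold. All 5 red points are small RNA genes listed at 0 in VPA, and black points mark examples named in the text.

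No other gene passed the threshold in limma, so what follows is given as values. Unadjusted p-values below 0.05 were found for 639 genes that were higher in VPA (5.18%) and for 662 that were lower (5.36%). When small RNA genes were left out and the columns rescaled, the same counts were 661 higher and 427 lower. The 3 VPA values lay entirely above the 3 control values in 1011 genes (8.19%) and entirely below them in 1151 genes (9.32%), or 17.5% in all. The excess of lower genes depended on the scaling, with 999 higher and 807 lower without small RNA genes and 1103 higher and 1050 lower with median-of-ratios scaling. An exact permutation test of 3 against 3 libraries cannot give a p below 0.1. The median log2 fold change over all genes was -0.01, and 47.4% of genes were above 0.

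The sorted cells carried progenitor transcripts at similar levels in both groups. Nes, which encodes Nestin, had 15.5, 20.1 and 16.6 FPKM in VPA, against 17.8, 16.7 and 14.2 FPKM in controls. Pax6, a transcription factor of dorsal radial glia, had 21.6, 26.6 and 21.6 FPKM in VPA, against 24.4, 22.6 and 19.8 FPKM in controls. The groups overlapped in both, as they did in Eomes, the marker of cortical intermediate progenitors, with 81.6, 123.0 and 72.5 FPKM in VPA and 91.9, 107.1 and 91.4 FPKM in controls. Sox2, a transcription factor of neural stem cells, varied more among controls, with 45.3, 47.7 and 37.5 FPKM in VPA, against 48.6, 35.8 and 24.5 FPKM in controls.

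Neuronal transcripts were abundant in the sort. Dcx, a microtubule-binding protein gene of newborn neurons, had 250.1, 236.4 and 234.8 FPKM in VPA, against 240.7, 216.8 and 235.7 FPKM in controls. Per length, Dcx was thus above Nes in every library, so the label of progenitors covers cells or RNA of newborn neurons too. Microglial and endothelial transcripts were low. None of 14 microglia and macrophage genes and 1 of 11 endothelial genes passed the filter.

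Choroid plexus transcripts were far higher in VPA replicate 3 than in any other library. Ttr, the thyroid hormone carrier that choroid plexus epithelium secretes in bulk, had 29.7, 56.1 and 9662 FPKM in VPA, against 8.75, 16.1 and 131.4 FPKM in controls. The 24 choroid plexus genes together summed to 187.2, 224.4 and 11940 FPKM in VPA, against 159.7, 197.1 and 328.1 FPKM in controls. VPA replicate 3 stood apart. Replicates 1 and 2 lay below the highest control, but each VPA library was above the control of the same number, in the sum and in Ttr. The log2 fold change of Ttr was 3.19 with all libraries (SE 2.18, adjusted p = 0.622), 0.58 without VPA replicate 3 and -0.19 without that library and control replicate 1.

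Defining choroid plexus genes followed Ttr. Folr1, a folate receptor, had 0.102, 0.717 and 81.8 FPKM in VPA, against 0.0461, 0.181 and 0.916 FPKM in controls. Kcnj13, a potassium channel of this epithelium, had 0.359, 0.368 and 68.4 FPKM in VPA, against 0.311, 0.209 and 1.23 FPKM in controls. Both were near 0 outside VPA replicate 3. Otx2, a transcription factor of choroid plexus and midline tissue, had 2.19, 3.25 and 20.7 FPKM in VPA, against 2.16, 0.96 and 1.13 FPKM in controls, without overlap. In the same library meningeal fibroblast genes summed to 86.7 FPKM, where the other 5 libraries had 4.02 to 8.88 FPKM. Of these 10 genes only 1 passed the filter and 5 were below 1 FPKM in all 6 libraries, so the sum rests on few members.

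**Figure D2:**
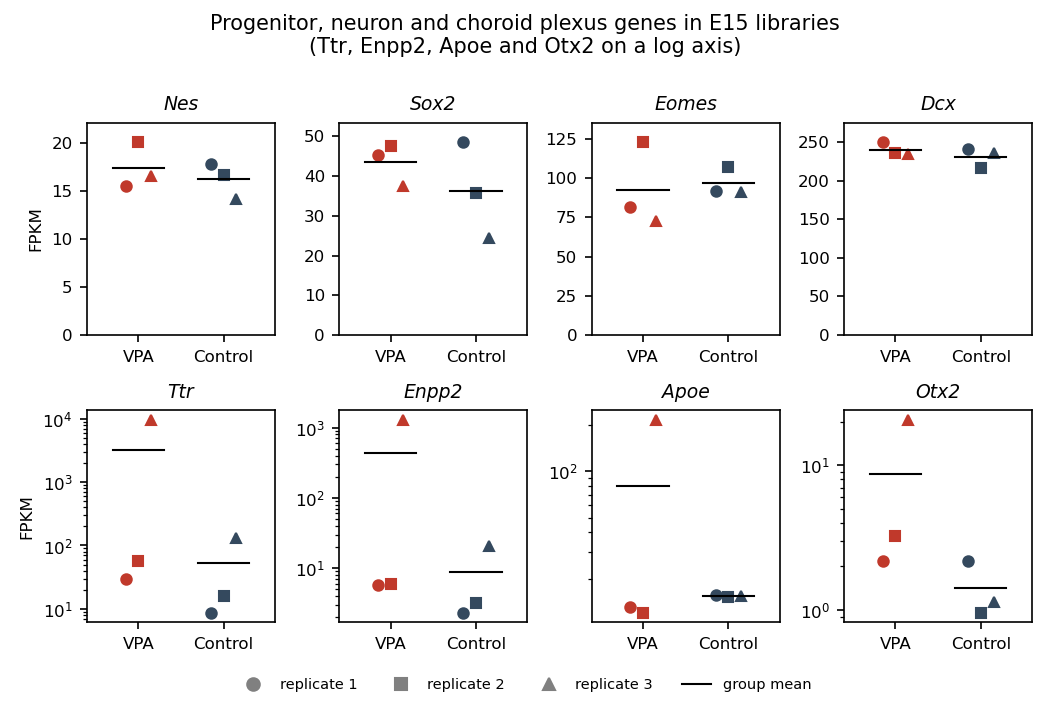
FPKM (y axis) of progenitor, neuron and choroid plexus genes in the 3 VPA libraries (red, left) and the 3 control libraries (dark, right), with a bar at each group mean; the lower row has log axes. Nes, Sox2, Eomes and Dcx overlap between groups, and Ttr reaches 9662 FPKM in VPA replicate 3 alone.

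VPA replicate 3 had 135 genes at least 1 log2 unit above the other 5 libraries and 30 at least 1 unit below them. The other libraries had 2 to 5 genes above and 3 to 11 below. The first principal component, with 35.4% of the variance, separated this library from the rest. Relative depth, estimated from values under 2 FPKM, was 0.965 to 1.36 in VPA and 1 to 1.41 in controls, relative to control replicate 1. Replicate 2 of each group held Xist at 163 FPKM in VPA and 103 FPKM in controls with Ddx3y at 0.0119 and 0.009 FPKM. The other 4 libraries had Ddx3y at 12.1 to 16.0 FPKM and Xist below 0.5 FPKM. This difference was thus shared evenly between the groups.

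Immediate early genes, which encode transcription factors and phosphatases induced within minutes of a stimulus, were mostly higher in VPA. Of 32 members 25 were tested, 22 had a positive log2 fold change and 9 were higher without overlap, against 1 lower. Their median log2 fold change was 0.35, beside -0.01 over all genes. The share of members higher without overlap was 36%, beside 8.19% of all genes. Of the 9, Ctgf passed the filter through its VPA values alone (1.497, 1.99 and 1.29 FPKM in VPA, against 0.903, 0.654 and 0.756 FPKM in controls), so it had to be higher. None passed the threshold in limma, and 12 were higher and 1 lower at an unadjusted p below 0.05.

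Egr3, a zinc-finger transcription factor gene (chromosome 14, 70077203 to 70082614), had 2.37, 2.45 and 2.77 FPKM in VPA, against 1.01, 0.688 and 0.784 FPKM in controls (log2 fold change 0.95, SE 0.13, adjusted p = 0.171). It was tested through its VPA values and 1 control. Srf, the serum response factor gene, had 30.5, 35.7 and 28.9 FPKM in VPA, against 20.2, 18.2 and 19.3 FPKM in controls (log2 fold change 0.69, SE 0.09, adjusted p = 0.171). Junb, which pairs with Fos proteins in AP-1, had 6.53, 7.48 and 7.51 FPKM in VPA, against 4.07, 4.32 and 2.98 FPKM in controls (0.78, SE 0.13, adjusted p = 0.291). In each of them every VPA library exceeded every control. Serum response factor drives many genes of this list, its own gene included, through CArG boxes. In the 250 bases before the annotated start of Srf, the minus-strand window chr17:46556163-46556412 (RefSeq, GRCm38.p6), a search for the CArG box on both strands found 2 matches, shown in capitals.
Srf: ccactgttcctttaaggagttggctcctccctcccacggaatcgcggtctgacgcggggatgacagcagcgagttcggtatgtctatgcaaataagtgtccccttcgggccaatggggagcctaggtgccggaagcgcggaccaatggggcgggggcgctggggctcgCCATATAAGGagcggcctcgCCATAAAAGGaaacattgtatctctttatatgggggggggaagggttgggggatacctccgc

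The match starts lay at bases 169 and 189 of the window. Of all 32851 such windows 1.47% held a CArG box, as did 2 of 20 windows of tested immediate early genes. The cAMP response element TGACGTCA stood in 3 of the 20 windows and in 1.55% of all windows, and the AP-1 motif TGANTCA in 0 of the 20 and in 6.75% of all.

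Further members followed the same order. Nr4a1, an orphan nuclear receptor, had 6.70, 6.34 and 6.63 FPKM in VPA, against 4.55, 3.13 and 4.44 FPKM in controls. Dusp1, a phosphatase that switches off MAP kinases, had 44.4, 46.0 and 40.9 FPKM in VPA, against 35.0, 35.9 and 31.8 FPKM in controls. The groups did not overlap in either gene. Fos, the partner of Jun proteins in AP-1, did overlap, with 17.8, 22.5 and 12.4 FPKM in VPA, against 14.4, 7.66 and 8.39 FPKM in controls. Egr1 overlapped more, with 15.9, 26.1 and 16.6 FPKM in VPA, against 26.3, 13.4 and 11.8 FPKM in controls. Of the 3 members with a negative log2 fold change, Jund and Nr4a3 overlapped and Fosl2, another AP-1 subunit, did not, at 6.81, 7.17 and 7.09 FPKM in VPA, against 8.04, 7.96 and 10.2 FPKM in controls. Without control replicate 1, 17 of the 32 listed members were higher without overlap, and without VPA replicate 3, 16 were. Fewer libraries raise such counts in all genes too, to 16.7% and 15.3% higher.

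Feedback inhibitors of growth-factor signalling were described beside them, since receptor tyrosine kinases induce both. Spry2, which dampens receptor tyrosine kinase signalling, had 12.8, 13.5 and 16.7 FPKM in VPA, against 8.16, 7.25 and 8.29 FPKM in controls (log2 fold change 0.78, SE 0.11, adjusted p = 0.195). Dusp5, a phosphatase of nuclear ERK, had 1.73, 1.88 and 1.94 FPKM in VPA, against 1.34, 0.335 and 0.304 FPKM in controls. Both were higher in every VPA library. Dusp5 was tested through its VPA values and control replicate 1. Of 12 members tested, 9 had a positive log2 fold change, with a list median of 0.21. These 2 were the members higher without overlap (16.7%, beside 8.19% of all genes).

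**Figure D3:**
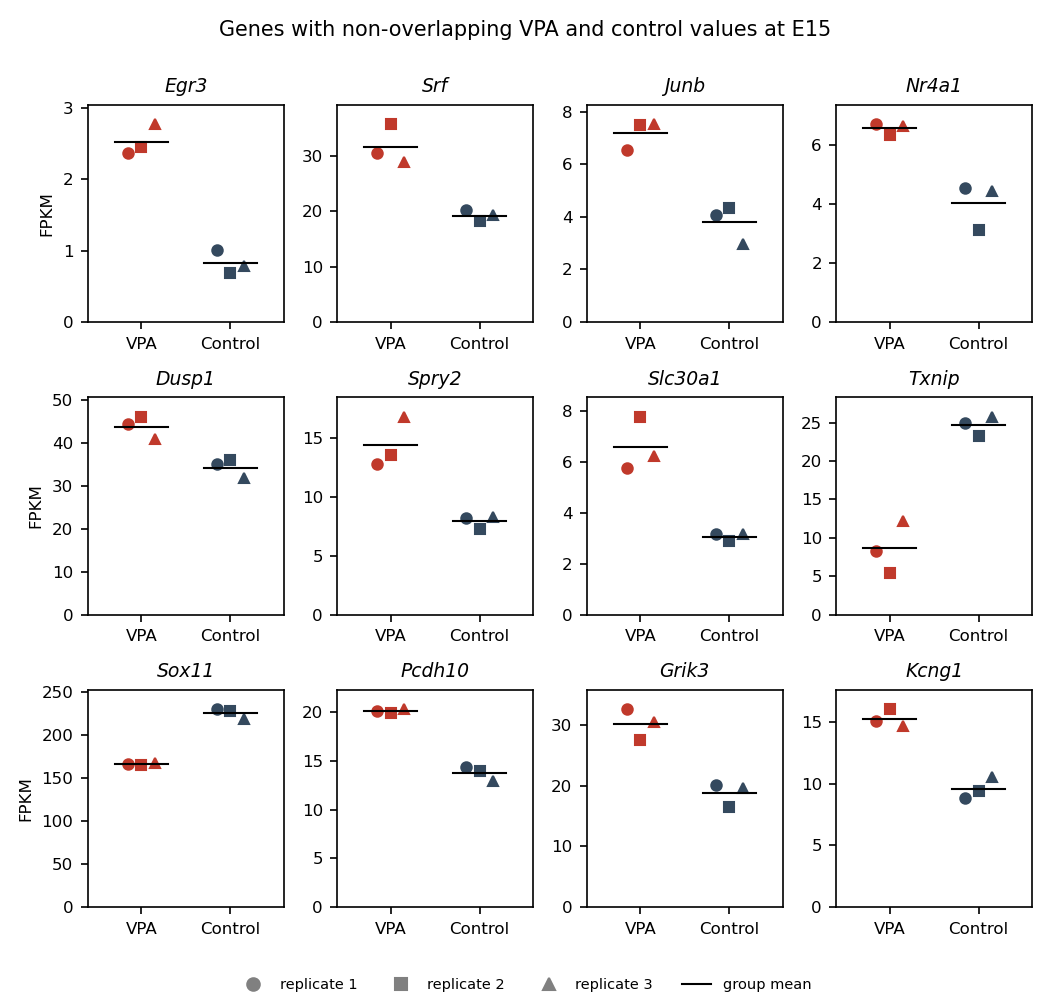
FPKM (y axis, from 0) of 12 genes in the 3 VPA libraries (red, left) and the 3 control libraries (dark, right), with replicate number by symbol and a bar at each group mean. In each panel the groups do not overlap, with Txnip and Sox11 lower in VPA and the other 10 genes higher, and none of them passed the threshold.

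Single genes of zinc export and of redox control were among the most separated. Slc30a1, the plasma membrane zinc exporter that cells induce through the metal response factor MTF1, had 5.75, 7.78 and 6.24 FPKM in VPA, against 3.16, 2.88 and 3.16 FPKM in controls (log2 fold change 0.89, SE 0.12, adjusted p = 0.171). Txnip, an inhibitor of thioredoxin and of glucose uptake (chromosome 3, 96557957 to 96561883), had 8.33, 5.42 and 12.1 FPKM in VPA, against 24.9, 23.2 and 25.8 FPKM in controls (-1.47, SE 0.24, adjusted p = 0.246). Neither gene's groups came close to overlapping. With the spread taken from all 21 libraries, Txnip passed the threshold. The only other genes to do so were Mir7078 and Lhx8, which at E15 reached 1 FPKM in 1 group only.

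The metallothionein genes Mt1 and Mt2, also targets of MTF1, overlapped between groups. Mt1, a metallothionein, had 9.24, 16.0 and 20.3 FPKM in VPA, against 9.88, 12.7 and 9.89 FPKM in controls. Mt2 had 10.8, 15.1 and 10.9 FPKM in VPA, against 12.7, 12.2 and 9.29 FPKM in controls. Of the 19 tested metallothionein and zinc transport genes 2 were higher without overlap (10.5%, beside 8.19% of all genes), Slc30a1 and the zinc importer Slc39a1. The 1 lower member was Slc39a10 (5.26%, beside 9.32% of all genes). The metal response element core TGCNCNC, searched on both strands, stood once in the 250 bases before Slc30a1, plus strand, chr1:191906531-191906780 (RefSeq, GRCm38.p6), and is in capitals on the opposite strand. It is common, in 44.4% of all windows and in 12 of 17 windows of tested metallothionein and zinc transport genes.
Slc30a1: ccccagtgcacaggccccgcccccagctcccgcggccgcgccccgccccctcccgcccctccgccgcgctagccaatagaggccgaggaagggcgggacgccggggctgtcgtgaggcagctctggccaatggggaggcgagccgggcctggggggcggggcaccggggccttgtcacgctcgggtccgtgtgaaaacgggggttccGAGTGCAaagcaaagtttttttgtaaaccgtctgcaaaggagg

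Genes of the ventral forebrain and of GABAergic neurons were higher in VPA than in control replicates 2 and 3, with control replicate 1 in between or at the VPA level. Of 35 members 30 were tested, and 27 had a positive log2 fold change, with a median of 0.66. The groups did not overlap in 7 higher members (23.3%, beside 8.19% of all genes) and 1 lower. None passed the threshold in limma, and 13 were higher and 0 lower at an unadjusted p below 0.05. Summed over the 35 members, the level was 776.5, 660.3 and 700.9 FPKM in VPA, against 671.4, 462 and 410.3 FPKM in controls.

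Transcription factors of the ganglionic eminences, the ventral progenitor zones, showed this most. Dlx1 had 85.2, 72.6 and 100.6 FPKM in VPA, against 89.8, 34.8 and 25.3 FPKM in controls (log2 fold change 0.97, SE 0.42, adjusted p = 0.487). Dlx2 had 59.3, 50.4 and 51.9 FPKM in VPA, against 59.2, 23.9 and 14.5 FPKM in controls. Control replicate 1 lay within the VPA range in both. Isl1, a factor of striatal and cholinergic neurons, had 6.89, 5.12 and 4.25 FPKM in VPA, against 4.49, 0.258 and 0.0311 FPKM in controls. Six3, another striatal factor, had 5.98, 3.72 and 3.08 FPKM in VPA, against 3.63, 0.333 and 0.0416 FPKM in controls. Again control replicate 1 lay within the VPA range and the other controls far below it.

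Members that separated the groups fully included medial eminence factors and neuron genes. Lhx8, needed for forebrain cholinergic neurons (chromosome 3, 154306294 to 154330659), had 1.81, 3.81 and 6.53 FPKM in VPA, against 0.631, 0 and 0 FPKM in controls (log2 fold change 1.99, SE 0.38, adjusted p = 0.344). Only its VPA values brought it past the filter. Nkx2-1, which specifies the medial ganglionic eminence, had 2.02, 3.94 and 8.76 FPKM in VPA, against 1.46, 0.271 and 0.158 FPKM in controls. In both genes VPA replicate 3 was the highest library. Tac1, the substance P precursor of striatal neurons, had 3.46, 3.24 and 3.16 FPKM in VPA, against 1.29, 0.096 and 0.217 FPKM in controls (1.56, SE 0.27, adjusted p = 0.302). Nkx2-1 and Tac1 were tested through their VPA values and control replicate 1. Slc32a1, the vesicular GABA transporter, had 19.1, 16.0 and 17.2 FPKM in VPA, against 13.4, 8.75 and 8.50 FPKM in controls (0.74, SE 0.17, adjusted p = 0.344).

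In bulk RNA, more cells of a type and more RNA per cell cannot be told apart, and the part that the dissection or the sort had in these differences was not tested. Without control replicate 1, 4 ventral members passed the threshold and were higher, namely Tac1, Isl1, Dlx6 and Sp8. Control replicate 1 had the highest ventral sum of the controls, so its removal favours higher calls, and these are given as a description. Of the 35 listed members, 23 were then higher without overlap, beside 16.7% of all genes. Tac1 and Isl1 then passed the filter through VPA alone. Without VPA replicate 3, 12 were higher without overlap, beside 15.3% of all genes. Cell cycle genes also stood high in control replicate 1. The 24 genes of G2 and mitosis summed to 247.8, 267.4 and 217.3 FPKM in VPA, against 340.4, 227.3 and 169.6 FPKM in controls.

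**Figure D4:**
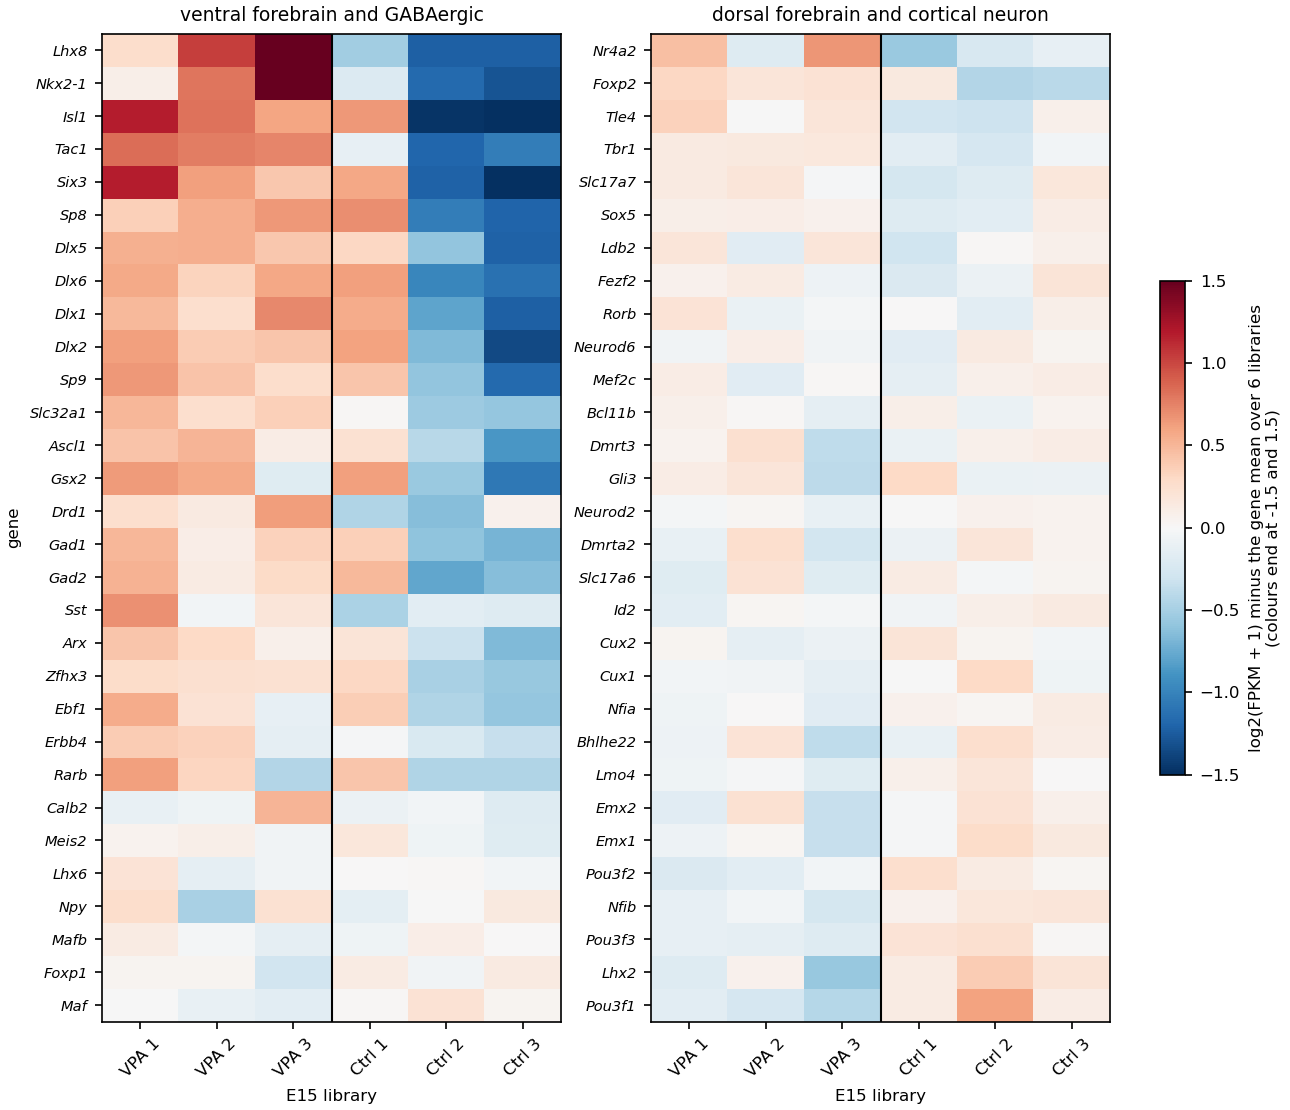
Log2(FPKM + 1) minus the gene's mean over the 6 libraries (colour, ending at -1.5 and 1.5) for the 30 tested ventral genes and 30 of the 31 tested dorsal genes (rows), with VPA libraries left and controls right (columns). Most ventral genes are red in the 3 VPA libraries and in control replicate 1 and blue in control replicates 2 and 3, while dorsal genes differ less.

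Genes of the dorsal forebrain and cortical neurons were mostly slightly lower. Of 31 tested, 22 had a negative log2 fold change, with a median of -0.10. Without overlap, 8 were lower (25.8%, beside 9.32% of all genes) and 2 higher (6.45%, beside 8.19%). The POU factors Pou3f1 and Pou3f3, of upper-layer neurons, were among the lower members, and neither passed the threshold. Pou3f1 had 27.7, 26.0 and 22.9 FPKM in VPA, against 34.1, 47.9 and 33.8 FPKM in controls, and Pou3f3 had 131.5, 130.4 and 125.8 FPKM in VPA, against 166.3, 169.3 and 145.0 FPKM in controls.

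The 2 higher members were Tbr1 and Foxp2, factors of deep-layer neurons. Tbr1 had 131.4, 132.9 and 133.7 FPKM in VPA, against 107.1, 100.6 and 115.9 FPKM in controls (log2 fold change 0.30, SE 0.07, adjusted p = 0.344). Foxp2 had 6.78, 6.14 and 6.30 FPKM in VPA, against 5.95, 3.63 and 3.75 FPKM in controls. Tbr1 is also a marker of Cajal-Retzius cells, early neurons of the cortical surface. Of 11 tested Cajal-Retzius genes 10 had a positive log2 fold change, with a median of 0.37. Without overlap, 3 were higher (27.3%, beside 8.19% of all genes). Their summed level was 238.7, 264.9 and 240.4 FPKM in VPA, against 193.7, 167.4 and 182.3 FPKM in controls, and the part of these cells in the level of Tbr1 was not tested. Bcl11b, which specifies subcerebral projection neurons of the deep layers, overlapped, at 39.9, 38.4 and 34.3 FPKM in VPA, against 40.4, 35.4 and 39.3 FPKM in controls. Emx1, a factor of dorsal progenitors, had 80.0, 86.3 and 66.3 FPKM in VPA, against 83.3, 102.9 and 93.7 FPKM in controls, with overlap.

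Newborn neuron genes were slightly lower, with 21 of 25 negative and a median of -0.09. Without overlap, 4 members were lower (16%, beside 9.32% of all genes). Sox11, a SoxC factor that drives neuronal differentiation (chromosome 12, 27334264 to 27342574), had 165.9, 164.6 and 166.7 FPKM in VPA, against 229.4, 227.1 and 218.0 FPKM in controls (log2 fold change -0.44, SE 0.06, adjusted p = 0.171). Every VPA library lay below every control. Ncam1, a neural adhesion molecule, had 65.4, 61.4 and 64.1 FPKM in VPA, against 76.6, 84.5 and 76.1 FPKM in controls. Nrp1, a semaphorin co-receptor, had 54.8, 62.6 and 41.8 FPKM in VPA, against 65.4, 77.8 and 69.2 FPKM in controls.

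Hedgehog pathway genes included targets of the signal with higher values in VPA, none of them past the threshold. Gli1, a transcription factor and standard target of Hedgehog signalling, had 1.77, 1.76 and 1.67 FPKM in VPA, against 1.21, 0.82 and 0.909 FPKM in controls (log2 fold change 0.47, SE 0.13, adjusted p = 0.37). Ptch1, the receptor and also a target, had 5.66, 6.41 and 5.91 FPKM in VPA, against 4.98, 3.38 and 3.01 FPKM in controls. Neither gene's groups overlapped. Gli1 was tested through its VPA values and control replicate 1. Of 11 tested members 4 (36.4%, beside 8.19% of all genes), Gli1, Ptch1 and Disp1 among them, were higher without overlap and 0 lower. The median was 0.25. Ventral progenitors are a site of Hedgehog signalling, and the ventral genes above were higher in the same libraries. The part of ventral cells in the Hedgehog values was not tested. Control replicate 1 was again the highest control for Gli1 and Ptch1.

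Among Notch genes, Dll1, a ligand of committed progenitors, had 31.2, 44.2 and 26.1 FPKM in VPA, against 23.9, 17.1 and 18.1 FPKM in controls. Lfng, which modifies Notch, had 5.21, 7.82 and 5.29 FPKM in VPA, against 4.87, 4.11 and 3.20 FPKM in controls. These were the 2 of 18 tested members higher without overlap (11.1%), close to the share among all genes. The Notch target Hes5 overlapped, with 6.53, 7.10 and 5.58 FPKM in VPA, against 7.85, 6.79 and 7.87 FPKM in controls.

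Imprinted genes, expressed from 1 parental copy, were mostly higher. All 23 members were tested, 19 had a positive log2 fold change and 6 were higher without overlap (26.1%, beside 8.19% of all genes) against 0 lower, with a median of 0.19. Magel2, a ubiquitin ligase regulator of the Prader-Willi region, had 4.98, 4.81 and 6.73 FPKM in VPA, against 3.11, 1.15 and 1.31 FPKM in controls (log2 fold change 1.24, SE 0.26, adjusted p = 0.344). Peg10, a retrotransposon-derived gene, had 7.29, 8.63 and 9.20 FPKM in VPA, against 6.14, 3.14 and 2.78 FPKM in controls. Control replicate 1 was once more the highest control. Peg3, a zinc-finger gene, had 20.4, 20.7 and 22.2 FPKM in VPA, against 16.9, 11.4 and 12.9 FPKM in controls.

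Genes of the histone deacetylases themselves differed little. Hdac1 had 20.1, 20.0 and 22.3 FPKM in VPA, against 22.5, 20.0 and 19.1 FPKM in controls, and Hdac2 had 200.004, 212.6 and 208.7 FPKM in VPA, against 214.2, 250.8 and 228.2 FPKM in controls. Hdac2 was lower without overlap by a small margin. Of 13 histone deacetylase genes 2 were lower without overlap (15.4%, beside 9.32% of all genes), the class I members Hdac2 and Hdac8, and 0 higher, with a median of -0.05. Cdkn1a, the cell cycle inhibitor that histone deacetylase inhibitors induce in many cultured cells, had 3.11, 5.17 and 2.56 FPKM in VPA, against 1.97, 2.62 and 2.39 FPKM in controls (log2 fold change 0.44, SE 0.21, adjusted p = 0.515). The groups overlapped. Among the 8 tested genes known to respond to such inhibitors, 1 was higher without overlap (12.5%, beside 8.19% of all genes). This was Gsn, an actin-severing protein, with 1.99, 2.04 and 9.82 FPKM in VPA, against 1.95, 1.77 and 1.598 FPKM in controls, highest in VPA replicate 3.

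Cell-surface genes of neurons held several of the most separated values. Pcdh10, an adhesion protocadherin (chromosome 3, 45378398 to 45435623), had 20.2, 19.9 and 20.3 FPKM in VPA, against 14.4, 14.0 and 13.0 FPKM in controls (log2 fold change 0.52, SE 0.07, adjusted p = 0.171). Cdh8, a classical cadherin, went the other way, with 23.1, 23.7 and 20.8 FPKM in VPA, against 26.7, 31.1 and 29.7 FPKM in controls. Of 15 cadherins and protocadherins tested, 5 were higher without overlap (33.3%, beside 8.19% of all genes) and 2 lower (13.3%, beside 9.32%). Grik3, a kainate receptor subunit, had 32.6, 27.6 and 30.4 FPKM in VPA, against 20.2, 16.5 and 19.7 FPKM in controls (0.66, SE 0.10, adjusted p = 0.195). Gabra2, a GABA-A receptor subunit, was lower, with 15.4, 8.69 and 9.12 FPKM in VPA, against 21.7, 20.5 and 19.2 FPKM in controls. Among 25 receptor genes 6 were higher without overlap (24%), of which 1 passed the filter through VPA alone, and 1 lower (4%), with a median of 0.01. Kcng1, a modifier subunit of voltage-gated potassium channels, had 15.1, 16.0 and 14.7 FPKM in VPA, against 8.87, 9.39 and 10.5 FPKM in controls (0.62, SE 0.08, adjusted p = 0.171).

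Guidance genes held members of either direction. Plxnd1, a semaphorin receptor, had 12.5, 11.5 and 9.62 FPKM in VPA, against 5.61, 6.88 and 6.86 FPKM in controls (log2 fold change 0.71, SE 0.12, adjusted p = 0.291). Sema3c, a secreted semaphorin, was lower, with 17.95, 17.8 and 11.8 FPKM in VPA, against 25.1, 30.5 and 24.7 FPKM in controls (-0.73, SE 0.17, adjusted p = 0.344). Of 36 members 7 were higher without overlap (19.4%, beside 8.19% of all genes) and 3 lower (8.33%, beside 9.32%). Cxcr4, the chemokine receptor that steers interneurons and dentate precursors, overlapped, with 22.8, 28.4 and 11.8 FPKM in VPA, against 21.04, 24.5 and 24.8 FPKM in controls. Its ligand gene Cxcl12 had 17.7, 19.1 and 18.2 FPKM in VPA, against 14.9, 14.7 and 15.4 FPKM in controls, without overlap.

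Signalling and metabolic genes held further separated values. Rgs8 and Rgs16, regulators of G protein signalling, were higher. Rgs8 had 9.89, 8.53 and 10.3 FPKM in VPA, against 5.30, 4.71 and 5.73 FPKM in controls, and Rgs16 had 22.3, 20.9 and 21.7 FPKM in VPA, against 13.8, 14.3 and 16.2 FPKM in controls. Mid1, a microtubule-associated ubiquitin ligase, had 21.5, 24.9 and 20.3 FPKM in VPA, against 13.0, 13.4 and 9.23 FPKM in controls. Slc25a47, a mitochondrial carrier, had 1.49, 1.23 and 1.20 FPKM in VPA, against 3.47, 5.16 and 6.77 FPKM in controls (log2 fold change -1.38, SE 0.20, adjusted p = 0.195). Among 21 cholesterol synthesis genes 4 were lower without overlap (19%, beside 9.32% of all genes) and 1 higher (4.76%, beside 8.19%). The median was -0.03. Mvd, of the mevalonate pathway, had 19.5, 17.996 and 18.1 FPKM in VPA, against 21.008, 27.1 and 23.0 FPKM in controls.

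Ribosomal protein genes were lower as a body by a small amount, with 68 of 75 negative and a median of -0.13. Only 3 of them were lower without overlap (4%, beside 9.32% of all genes), and the summed level of the 76 list members was 20060, 20230 and 21610 FPKM in VPA, against 19220, 26770 and 22440 FPKM in controls. Control replicate 2 was the high library. S phase genes had 22 of 27 positive and a median of 0.09. Without overlap, 1 member was higher (3.7%, beside 8.19% of all genes) and 1 lower (3.7%, beside 9.32%).

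**Figure D5:**
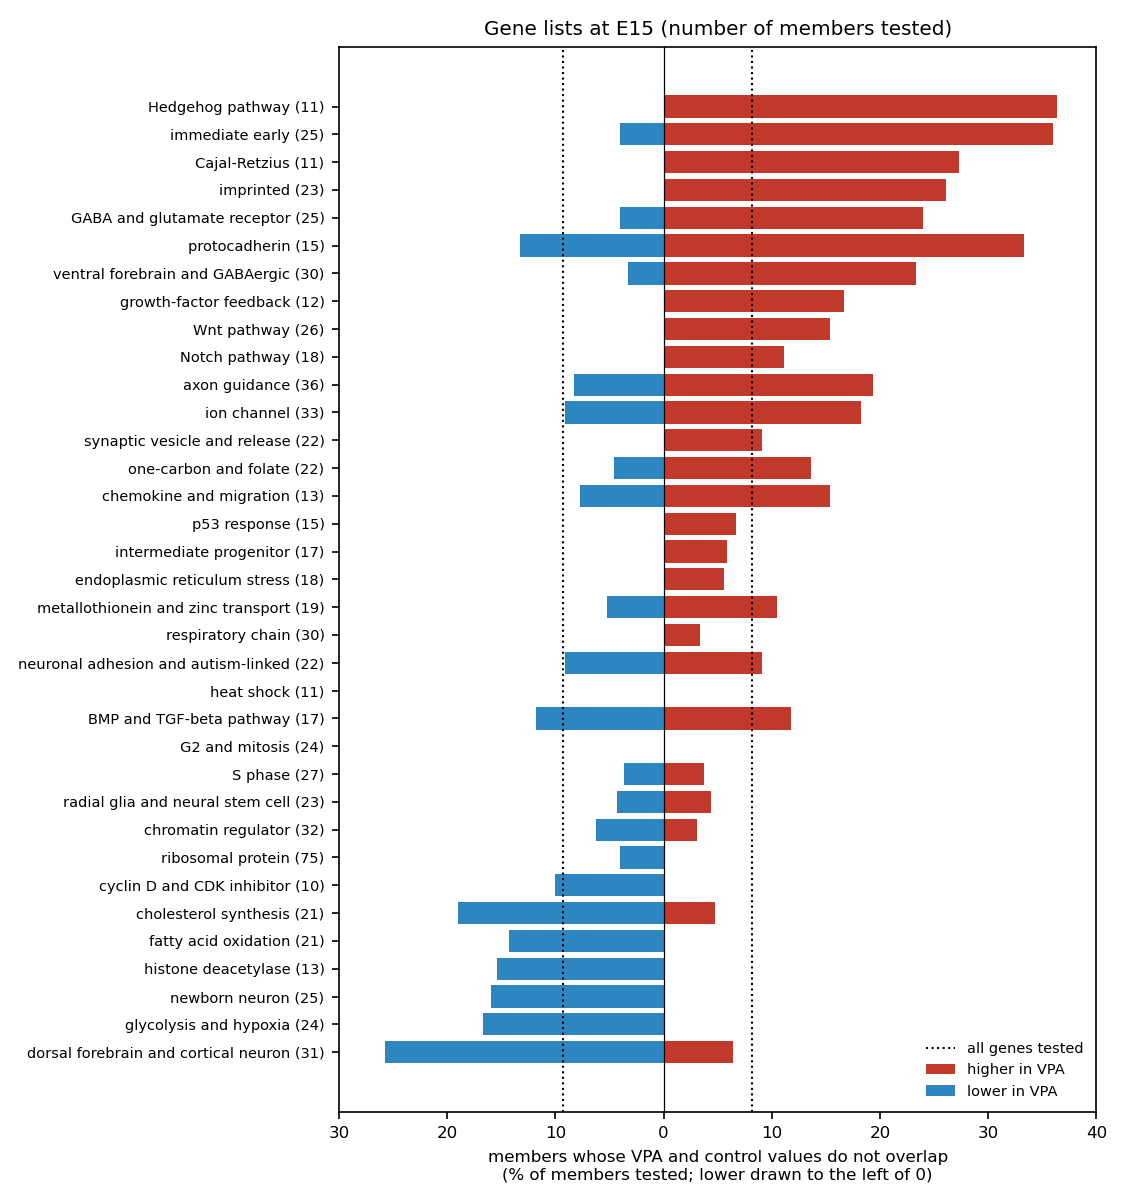
Share of tested members whose VPA and control values did not overlap (x axis, in percent) for the gene lists with at least 10 tested members (y axis, number tested in brackets), higher in VPA to the right of 0 (red) and lower to the left (blue). Dotted lines mark all genes tested, 8.19% higher and 9.32% lower. Hedgehog (36.4%) and immediate early genes (36%) reach farthest to the right and dorsal forebrain genes farthest to the left.

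With array quality weights in the fit, 347 genes passed the threshold, 203 higher and 144 lower, against 5 without. The weights were 1.51, 1.1 and 0.367 for the VPA libraries and 0.508, 0.5 and 6.45 for the controls, so control replicate 3 carried most of the control side. These were 2.81% of all genes, 1.64% higher. They included 11 ventral members, 7 immediate early members, Slc30a1, Txnip, Sox11, Pcdh10 and Grik3. The 5 small RNA genes needed all 3 control libraries to be tested. Without control replicate 2 or 3, 0 genes passed in limma. At an unadjusted p below 0.05, 391 genes were then higher and 494 lower without replicate 2, and 389 higher and 365 lower without replicate 3. Without control replicate 1, 7 genes passed and all were higher (0.0572% of all genes).

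At P5, Nestin-EGFP positive cells of the hippocampal dentate gyrus from VPA and control offspring (3 libraries each) allowed the VPA effect to be compared between the experiments. The effect differed for 14 of 14662 genes in limma, 12 with a higher log2 fold change at E15 (0.0818%) and 2 with a lower one (0.0136%). They include Mir3060 and Mir6976, listed at 0 in every E15 library, and Mir7006, listed at 0 in every P5 control. With the replicate number as a block, 9 genes passed, 7 of them higher. Junb had log2 fold changes of 0.78 at E15 and -1.47 at P5, and Txnip had -1.47 at E15 and 0.50 at P5. Tissue and age differ together between the experiments.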

How the data were processed

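The authors' deposited tables gave 1 value per gene symbol and library. The submitters' processing notes list Bowtie2, TopHat, Cuffdiff and Cufflinks and the build mm10, with no versions. The unit of the deposited E15 and P5 values, FPKM, was inferred from the 12-week file headers. Strand was not stated, so overlapping and antisense transcripts and close paralogues cannot be told apart. No read counts were used.

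Values were tested as log2(FPKM + 1) with limma 3.58.1 in R 4.3.3, lmFit and eBayes with an intensity trend, on genes with at least 1 FPKM in at least 3 of 6 libraries, and were tested on simulated data. The VPA effect at E15 was set against that at P5 as an interaction over all 21 libraries (14662 genes). Lists, members and alternatives were chosen with earlier results of these data known. Named genes were those past the threshold, the 15 smallest p in each direction among non-overlapping genes of at least 5 FPKM (small RNA and numbered models left out), up to 3 members per list and direction, and 13 fixed genes; the text takes examples. The labels give replicate numbers but state no pairing. Deviations from group means correlated at 0.126, 0.115 and 0.228 for same-numbered libraries, and at -0.151 to 0.0227 for the others. Deviations were taken within each group, so these values constrain one another and do not settle whether libraries were paired. The main fit used no pairing. Positions were from GENCODE vM21 (23185 of 24322 symbols) and sequences from RefSeq. Settings tried were a pseudocount of 0.1, filters of none and 5 FPKM, other scalings, weights, variance priors, a replicate block, a covariate for Y-linked transcripts and the removal of each library. Values of some list members are not reported here.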

Additional observations from a re-analysis of the deposited data

Results flagged for a closer look

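The effect of VPA at E15 differed from that in Nestin-EGFP positive cells of the dentate gyrus at P5 for 9 named genes, by an interaction in limma over all 21 libraries (adjusted over 14662 genes, of which 0.0818% were called higher and 0.0136% lower at E15). Tissue and age differ together between these experiments and cannot be told apart. Over all genes 14 passed, namely 7 of 31 tested immediate early genes, Txnip, Spry2, Bhlhe40, Adamts1 and 3 microRNA genes (Mir3060, Mir6976 and Mir7006). Mir3060 and Mir6976 were listed at 0 in every E15 library, so their calls rest on P5 values alone. Mir7006 was listed at 0 in every P5 control. Fos, Jun, Klf6, Btg2, Nr4a1, Bhlhe40, Adamts1 and these microRNA genes were chosen after their values were seen. Fos had 17.8, 22.5 and 12.4 FPKM in VPA and 14.4, 7.66 and 8.39 FPKM in controls at E15, while at P5 it had 148.3, 187.6 and 223.6 FPKM in VPA and 626.7, 732.6 and 669.1 FPKM in controls. The difference of its log2 fold changes, E15 minus P5, was 2.62 (SE 0.34, adjusted p = 0.00139). Junb differed by 2.25 (SE 0.26, adjusted p = 0.000354), with log2 fold changes of 0.78 at E15 and -1.47 at P5. Nr4a1 differed by 2.18 (adjusted p = 0.0377), Klf6 by 1.66 (adjusted p = 0.00102), Btg2 by 1.53 (adjusted p = 0.00633), Jun by 1.46 (adjusted p = 0.00928) and Srf by 1.45 (adjusted p = 0.00705). Each was higher in VPA on average at E15 and lower at P5, but none passed the threshold at E15 alone. In Fos, Jun and Btg2 the groups overlapped at E15. The log2 fold changes at E15 and P5 were 0.75 and -1.87 for Fos, 0.60 and -1.59 for Nr4a1, and 0.39 and -1.27 for Klf6. They were 0.45 and -1.08 for Btg2, 0.28 and -1.18 for Jun, and 0.69 and -0.77 for Srf.

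Spry2 differed by 1.31 (adjusted p = 0.00928), with 12.8, 13.5 and 16.7 FPKM in VPA and 8.16, 7.25 and 8.29 FPKM in controls at E15, and 49.9, 47.9 and 48.5 FPKM in VPA and 69.3, 73.1 and 70.6 FPKM in controls at P5. Txnip went the opposite way, with a difference of -1.97 (adjusted p = 0.00431). At P5 it had 34.3, 25.4 and 25.0 FPKM in VPA and 19.8, 18.1 and 20.6 FPKM in controls. In the fit with the replicate block, Srf, Spry2 and Nr4a1 no longer passed (adjusted p = 0.0572, 0.0601 and 0.137). Nr4a1 also did not pass when any of 10 single libraries was left out, with adjusted p of 0.0844 to 0.179, and neither Spry2 nor Jun passed without P5 control replicate 2 (adjusted p = 0.0572 for each).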

How the results depend on the processing

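The count of 5 genes past the threshold became 3 with no filter (3 lower), 3 with a robust variance prior (3 lower), 3 with all 21 libraries in the fit (1 higher, 2 lower), 0 without small RNA genes (0 lower) and 347 with array quality weights (203 higher, 144 lower). With a pseudocount of 0.1 it was 7, and the 1 higher gene was Gm13363. With the replicate number as a block it was 4, Scarna6 being lost (adjusted p = 0.123), and for the difference between E15 and P5 it was 9 with 7 higher. The block changed no other call of a named gene at E15.

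When single libraries were left out, the count ran from 0 to 11 (0 to 7 higher, 0 to 11 lower), and the non-overlapping genes ran from 2799 to 4421 (1318 to 2044 higher, 1481 to 2377 lower). The difference between E15 and P5 ran from 8 to 22 genes (6 to 19 higher, 2 to 4 lower). It gave 30 genes with no filter (19 higher, 11 lower) and 157 with the 12 libraries of E15 and P5 alone (106 higher, 51 lower). Chosen after seeing the data, leaving out both VPA replicate 3 and control replicate 1 gave 1 gene (1 higher, 0 lower) and 6365 non-overlapping genes (2980 higher, 3385 lower). The 4 libraries with Y-linked transcripts, also chosen then, gave 0 genes (0 lower) and 4473 non-overlapping genes (1983 higher, 2490 lower). The 135 genes by which VPA replicate 3 stood apart became 401 with no filter, 44 with a filter at 5 FPKM and 320 with all 21 libraries. The causes were not tested.

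Some log2 fold changes turned their sign. Over the single libraries left out, they ran from -0.056 to 0.043 for Nop56, -0.11 to 0.040 for Apba3, -0.27 to 1.748 for Apoe, -0.087 to 0.030 for Bcl11b, -0.48 to 0.11 for Cxcr4, -0.32 to 0.053 for Eomes, -0.034 to 0.080 for Hdac1, -0.053 to 0.17 for Mt2, -0.0087 to 0.17 for Nes, -0.25 to 0.038 for Nr4a3 and -0.040 to 0.12 for Pax6. Nop56 gave 0.00097 with median-of-ratios scaling, 0.044 with quantile normalization, 0.020 without small RNA genes and 0.0050 with both libraries removed. Quantile normalization gave 0.019 for Chd3 and -0.0044 for Nnat. Array weights gave 0.059 for Apba3, -0.41 for Enpp2, 0.018 for Eomes, 0.030 for Jund and -0.30 for Ttr. With both libraries removed, Apba3 gave 0.069, Apoe -0.26, Cxcr4 0.041, Enpp2 -0.48, Eomes 0.018, Bcl11b 0.068 and Ttr -0.19. In the libraries with Y-linked transcripts, Pax6 gave -0.026, Egr1 -0.11 and Mt2 -0.0018.

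Depth in reads is unknown, so no counting interval can be given for low values such as those of Egr3 or Lhx8.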

Other observations

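Of 26 tested Wnt pathway genes 13 were above 0, and 4 were higher without overlap (15.4%, beside 8.19% of all genes) against 0 lower (beside 9.32%). None passed the threshold in limma, and 4 were higher and 0 lower at an unadjusted p below 0.05. Apc, a scaffold of the complex that degrades beta-catenin, had 53.3, 54.4 and 49.3 FPKM in VPA, against 45.5, 46.2 and 46.0 FPKM in controls (log2 fold change 0.18, SE 0.06, adjusted p = 0.422 in limma). Wnt7a, a ligand, had 11.9, 11.3 and 12.3 FPKM in VPA, against 10.1, 9.93 and 8.68 FPKM in controls. Lrp6, a Wnt co-receptor, had 13.6, 14.3 and 14.6 FPKM in VPA, against 12.6, 10.5 and 12.6 FPKM in controls.

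Ion channel genes had 6 of 33 tested members higher without overlap (18.2%, beside 8.19% of all genes) and 3 lower (9.09%, beside 9.32%). Kcnt1, a sodium-activated potassium channel, had 2.12, 2.06 and 3.51 FPKM in VPA, against 1.43, 1.03 and 1.45 FPKM in controls. Cacna1g, a T-type calcium channel, had 12.0, 11.3 and 9.55 FPKM in VPA, against 9.35, 7.79 and 7.82 FPKM in controls. Kcnk2, a leak potassium channel, was lower, with 18.8, 17.4 and 19.7 FPKM in VPA, against 20.2, 23.5 and 20.4 FPKM in controls. None of them passed the threshold.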
